A study of Drosophila melanogaster with 8 samples.

Results

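The well-expressed long noncoding RNAs of the developing Drosophila melanogaster retina are described here. They are the genes that the deposited table types as lincRNA and whose mean over all 8 libraries was at least 50 normalized counts. This rule found 104 members among 1713 lincRNA entries, of which 1241 had a read in any library, and the whole table held 15127 genes. Members were chosen by their level over both genotypes together, which lets in some genes through a high level in 1 genotype, as counted below. RNA came from retinas of female pupae aged 40 h from puparium formation, pooled from 10 to 20 retinas per preparation and selected for poly(A). The sev14 group held 4 libraries of a w[*] sev[14] stock, which carries an allele of the receptor tyrosine kinase gene sevenless together with an unspecified white allele, and the w1118 group held 4 libraries of the w[1118] control stock. Both groups thus carry an allele of white, and each genotype is represented by 1 stock, so that an effect of sev14 cannot be told apart from any other difference between the stocks. Libraries are written S1, S2, S4 and S5 for sev14 and W1, W2, W5 and W6 for w1118, after the column names. No label says that libraries of a genotype came from separate crosses or days, so the p-values measure the spread between these libraries, part of which may be technical.

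Long noncoding RNAs are transcribed, capped and often polyadenylated like messenger RNAs but carry no long open reading frame. Some act as RNA, for example as scaffolds of nuclear bodies or as parts of ribonucleoproteins, some are precursors that are cut to release miRNAs or snoRNAs, and for some the act of transcription affects a neighbouring gene. For most of the numbered CR genes no function is established, and none is given to them below.

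Recovered depth ranged from 13755813 to 19317307 reads per library. The 10 retina and photoreceptor marker genes were all detected in both genotypes, the only value of 0 being that of ro in S2, and none passed the test between genotypes. The allele-named gene sev averaged 274 ± 137 normalized counts in sev14 and 298 ± 58.3 in w1118 libraries (SD, n = 4 each; exact permutation p = 0.629, 2-sided), while w averaged 6124 ± 1179 in sev14 and 10.4 ± 3.88 in w1118 libraries. Markers of other tissues were present as well. The summed level of 7 tracheal markers was 9551 to 18290 in sev14 and 3220 to 6570 in w1118 libraries, with 1 of the 7, Gasp, called higher. Gasp was the largest part of that sum. Only pio of the 7 was lower, at 448 in sev14 and 1149 in w1118 libraries (-1.27, limma adjusted p = 0.0692). Summed fat body markers stood at 26113 to 76258 in sev14 and 18439 to 46153 in w1118 libraries, with 1 of 9 tested, Lsp1alpha, called higher. Of 9 tested glial markers 2, wrapper and Mdr65, were called lower. The glial markers nrv2 and alrm were higher without a call (0.53 and 0.75), and the rest were lower without a call. No marker of optic lobe neurons (12 tested), haemocytes (6) or muscle (8) was called. The part of these tissues in the values below was not tested.

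Levels of the members spanned 3 orders of magnitude. Only 6 had a mean of at least 1000 normalized counts, 56 lay between 100 and 1000, and 42 lay between 50 and 100. CR42862 (FBgn0262109, 3L 224106 to 230964) alone took 34.5% to 51.2% of all lincRNA reads of a library, and the 3 most abundant members together held 71.1% of the members' summed level. All lincRNAs together made up 0.414% of reads in S4 and 1.04% in W2, the lowest and the highest library. The 10 members with the highest mean normalized counts were CR42862, CR34335, Hsromega, CR40469, CR44922, CR42491, CR43264, pncr013:4, CR31451 and CR43051. Per kilobase of annotated exon the order differed: CR34335 led with 51497 normalized counts per kb (on 361 bp of exon in a newer annotation, where the deposited span is 249 bp), followed by CR40469 with 28924, CR42862 with 8949, CR42491 with 3076 and CR43264 with 2704. Hsromega, whose annotated span is a single exon of 21710 bp, had 409 normalized counts per kb.

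The threshold of 50 cut through a continuous range of levels. The 5 members just inside it, CR44831, CR44043, CR43144, CR42875 and CR46039, had means of 51.0 to 55.5 normalized counts, and the 5 lincRNAs just outside it, CR44811, Uhg8, CR44458, CR44119 and CR44230, had means of 48.7 to 49.8. In 21 members only 1 genotype had a mean of at least 50, so that a large difference helped to bring them in.

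A newer annotation (Ensembl, BDGP6) listed all 104 members, 96 of them at the same coordinates. It named 69 as long noncoding RNAs and 23 as antisense RNAs, placed 7 in other noncoding classes, and treated 5 as protein-coding. Those 5 were CR45273, now CG45273; pncr013:4, now CG33941; CR43051, now CG43051; CR43428, now CG43428; and CR44404, now IBIN, named for a short immune-inducible peptide. The median span of the members was 1948 bp, with extremes of 214 bp and 149629 bp, and 53 were a single block of exon. The spans of 64 members overlapped another gene of the table, which includes 24 with a protein-coding gene on the same strand and 39 with one on the opposite strand. The sources used here do not say whether reads were counted by strand, and the reads of overlapping genes cannot be told apart.

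The libraries of a genotype did not vary evenly over the members. Of the sev14 libraries S4 held the lowest value for 69 of the 104 members (66.3%), against 31.3% of all tested genes. Of the w1118 libraries W6 held the lowest value for 52 members, against 27.1% of all tested genes, and W2 the highest for 52, against 26.4%. The median member stood in S4 at 0.639 times the median of the other sev14 libraries, and in W6 at 0.744 times that of the other w1118 libraries, whereas the median ratio over all tested genes was 0.978 in S4 and 0.990 in W6. Other measures were also extreme in these libraries: the summed optic lobe and brain neuron markers were 12942 in S4 and 19058 to 32654 in the other sev14 libraries, and 15847 in W6 and 21465 to 24749 in the other w1118 libraries. The largest part of that sum was brp, at 7732 in S4 and 10001 in W6. The neuron list was not uniform, since bsh, toy, Lim1 and Gad1 were the lowest of their genotype in neither S4 nor W6. The summed fat body markers (26113 in S4 and 18439 in W6), haemocyte markers (5181 in S4 and 6473 in W6) and muscle markers (6730 in S4 and 4156 in W6) were likewise the lowest of each genotype. The largest part of the muscle sum in S4 was sls, at 4510. Among sev14 libraries Act57B, Mlc2, up and wupA were lowest in S5 and Act88F in S1, and among w1118 libraries Act88F and sls were lowest in W2. The haemocyte sum included lz, also on the retina list, at 2032 in S4 and 1722 in W6, and eater was highest in S4 among sev14 libraries. The summed retina markers were the highest of each genotype there, at 60328 in S4 and 44464 in W6. The largest part of that sum was chp, at 34176 in S4 and 19477 in W6. The retina list was not uniform, since elav, ct and pros were the lowest of each genotype in S4 and W6. The summed glial markers were lowest in S4 but not in W6, and the summed tracheal markers in neither. The ribosomal RNA pseudogenes took 0.528% of reads in S4 and 1.09% in W6, the lowest share of each genotype, against 2.94% in S1, 12.5% in S2 and 10.1% in S5, and 1.94% to 3.67% in the other w1118 libraries. The part of these measures in the low lincRNA values was not tested.

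**Figure D1:**
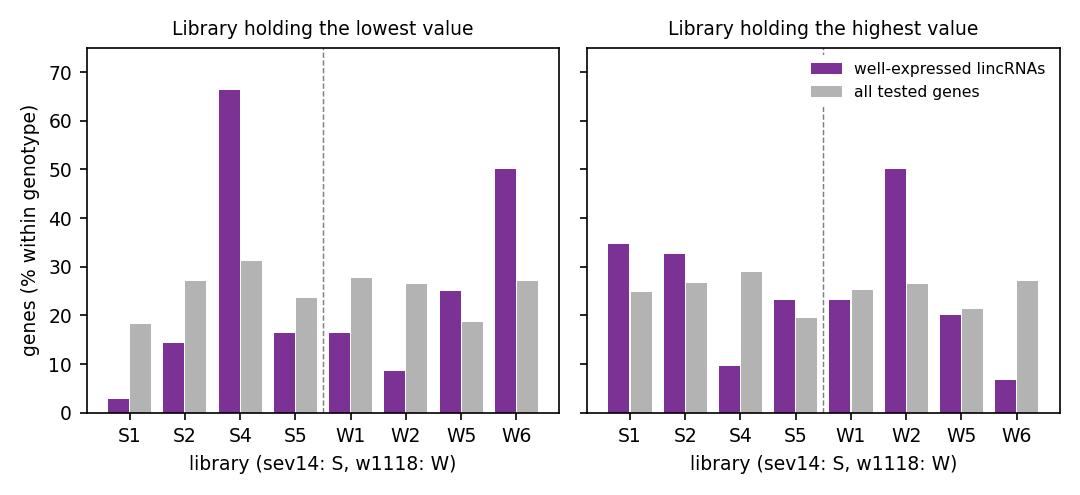
Percentage of genes whose lowest (left) or highest (right) value within a genotype fell in each library, for the 104 well-expressed lincRNAs (purple) and for all 10192 tested genes (grey), with sev14 libraries left of the dashed line and w1118 libraries right of it. S4 was lowest for 69 of the 104 members and W6 for 52, while W2 was highest for 52.

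The comparison asks which of these noncoding transcripts differ between sev14 and w1118 retinas. Of the 104 members, all of which passed the filter on low values, 11 rose and 6 fell in sev14 libraries at a limma adjusted p under 0.05. That is 16.3% of the members, beside 4.21% of all 10192 tested genes (2.38% higher and 1.82% lower), 4.03% of 8233 protein-coding genes with a mean of at least 50, and 3.01% of 266 tested lincRNAs with a lower mean. Of the 21 members that reached the mean of 50 in only 1 genotype 9 were called. Of the other 83, 8 were called (9.64%), beside 3.48% of the 8100 tested genes that averaged 50 or more in both genotypes. The median log2 difference was 0.18 over the members and 0.00 over all tested genes, and the median residual SD on the log2 scale was 0.52 over the members and 0.31 over all tested genes. No overlap between the 4 sev14 and the 4 w1118 values was seen for 28 members (26.9%; 18 higher and 10 lower), beside 11.1% of all tested genes (5.92% higher and 5.18% lower), and all 17 called members were among these 28. Differences of at least 2-fold were found for 15 of the 17. That is 14.4% of the members, beside 2.98% of all tested genes called at that size. An unadjusted p under 0.05 was found for 31 members (29.8%), beside 16.7% of all tested genes. The authors' deposited table gave an adjusted p under 0.05 to 27 members, 18 higher and 9 lower (beside 8.98% of all tested genes), and these included all 17 in the same direction. The shares without overlap, at 2-fold, by unadjusted p and in the authors' table include the 21 members that reached 50 in only 1 genotype. A large difference helped to bring those 21 in, and these shares were not counted again without them. In such bulk libraries fewer cells of a type and less RNA per cell cannot be told apart.

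**Figure D2:**
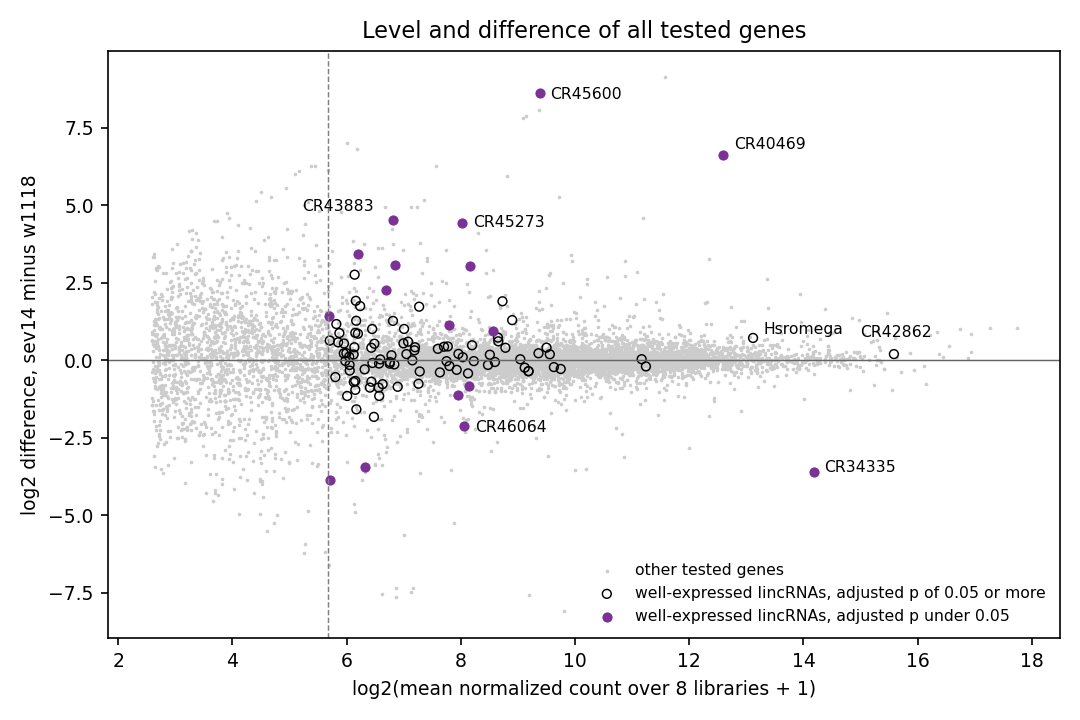
Log2 difference, sev14 minus w1118, against the log2 mean normalized count over 8 libraries, for all tested genes (grey), uncalled well-expressed lincRNAs (open circles) and called ones (purple); the dashed line marks a mean of 50. The 17 called members run from 8.62 for CR45600 to -3.86 for CR44043, and the abundant CR42862 and Hsromega lie among the uncalled.

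Among the 11 that rose, the largest differences belonged to CR45600 and CR40469. CR45600 (FBgn0267160, 3R 15136985 to 15140121, minus strand, named an antisense RNA in the newer annotation) had 1412, 1574, 849 and 1480 normalized counts in S1, S2, S4 and S5, against 1.77, 0, 6.72 and 4.44 in W1, W2, W5 and W6. All sev14 libraries were thus far above all w1118 libraries, in which only 12 reads were counted in all. The log2 difference was 8.62 ± 0.58 (SE, limma adjusted p = 3.18e-05).

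CR40469 (FBgn0058469, X 122493 to 122706, plus strand), a single exon of 214 bp and the shortest member, had 20023, 11461, 4275 and 13316 normalized counts in S1, S2, S4 and S5, and 81.5, 133, 145 and 84.3 in W1, W2, W5 and W6. S4 was lowest among the sev14 libraries, but still more than an order of magnitude above the highest w1118 library. The difference was 6.63 ± 0.41 (limma adjusted p = 3.13e-05).

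CR43883 (FBgn0264475, 3L 820759 to 821512) had 302, 189, 177 and 188 normalized counts in S1, S2, S4 and S5, against 12.4, 19.1, 6.72 and 2.22 in W1, W2, W5 and W6. S1 stood apart above the other sev14 libraries, and the genotypes did not overlap (4.54 ± 0.54, limma adjusted p = 0.00103). CR45273 (FBgn0266811, 2R 17131045 to 17131552), the called member that the newer annotation treats as protein-coding, had 526, 548, 316 and 525 in S1, S2, S4 and S5, and 0.885, 94.4, 26.9 and 42.2 in W1, W2, W5 and W6. The w1118 values were scattered over 2 orders of magnitude and the standard error was the largest among the called members (4.44 ± 0.98, limma adjusted p = 0.0331).

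CR44936 (FBgn0266241, 3R 8038250 to 8039626) had 190, 136, 122 and 84.9 normalized counts in S1, S2, S4 and S5, and 18.6, 17.1, 5.60 and 7.77 in W1, W2, W5 and W6 (3.43 ± 0.45, limma adjusted p = 0.00193). CR44465 (FBgn0265658, 2R 16810595 to 16811095) had 294, 186, 164 and 166 in S1, S2, S4 and S5, and 28.3, 47.2, 11.2 and 16.6 in W1, W2, W5 and W6 (3.07 ± 0.43, limma adjusted p = 0.00289). In both, every sev14 library was above every w1118 library by a wide margin.

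CR43461 (FBgn0263415, X 6732717 to 6735917) had 869, 521, 388 and 266 normalized counts in S1, S2, S4 and S5, and 78.8, 57.3, 51.5 and 41.1 in W1, W2, W5 and W6 (3.04 ± 0.35, limma adjusted p = 0.000968). CR43837 (FBgn0264385, X 6995882 to 6997799) had 190, 141, 156 and 186 in S1, S2, S4 and S5, and 31.9, 53.2, 21.3 and 35.5 in W1, W2, W5 and W6 (2.28 ± 0.31, limma adjusted p = 0.00225). The sev14 libraries of CR43461 differed more among themselves than those of CR43837, and neither gene had overlapping genotypes.

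The 3 smallest of the rises were CR44831, CR44370 and CR45131. CR44831 (FBgn0266094, X 14952345 to 14953697) averaged 74.5 ± 11.7 normalized counts in sev14 and 27.5 ± 7.27 in w1118 libraries (SD, n = 4 each; 1.43 ± 0.32 SE, limma adjusted p = 0.0358). CR44370 (FBgn0265508, 2R 15226938 to 15232665) averaged 301 ± 37.2 in sev14 and 139 ± 39.2 in w1118 libraries (1.15 ± 0.23, limma adjusted p = 0.0196). CR45131 (FBgn0266624, 2R 7631495 to 7635219) averaged 494 ± 67.4 in sev14 and 262 ± 57.7 in w1118 libraries (0.93 ± 0.19, limma adjusted p = 0.0234). The genotypes did not overlap for any of the 3, with the closest approach in CR45131, where S4 had 399 and W5 had 319.

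Of the 6 members that fell, CR34335 had by far the highest level per kilobase. CR34335 (FBgn0085364, X 3545862 to 3546110, minus strand) had 4260, 2929, 994 and 3285 normalized counts in S1, S2, S4 and S5, and 21626, 62293, 32608 and 20727 in W1, W2, W5 and W6. All sev14 libraries were below all w1118 libraries, S4 was the lowest and W2 the highest. The difference was -3.61 ± 0.47 (limma adjusted p = 0.00184).

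CR44043 (FBgn0264835, 2R 1368921 to 1371468) had 9.67, 7.33, 4.09 and 2.86 normalized counts in S1, S2, S4 and S5, and 116, 124, 72.8 and 72.1 in W1, W2, W5 and W6 (-3.86 ± 0.46, limma adjusted p = 0.00103). CR43949 (FBgn0264600, 3L 16020409 to 16021506) had 16.1, 4.19, 7.36 and 29.6 in S1, S2, S4 and S5, and 174, 226, 88.5 and 91.0 in W1, W2, W5 and W6 (-3.45 ± 0.58, limma adjusted p = 0.00823). Both were scarce in sev14 libraries, with 24 reads of CR44043 and 59 of CR43949 over the 4 libraries, and both passed the mean of 50 through the w1118 libraries.

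CR46064 (FBgn0267733, 2R 4782890 to 4785362) was the steadiest of the called members. It had 95.6, 97.4, 90.7 and 113 normalized counts in S1, S2, S4 and S5, and 477, 403, 406 and 445 in W1, W2, W5 and W6 (-2.12 ± 0.16, limma adjusted p = 6.75e-05). Neither S4 nor W6 stood apart for this gene.

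The smaller falls were those of CR43241 and CR44819. CR43241 (FBgn0262886, 2L 22131221 to 22132435) averaged 156 ± 46.5 normalized counts in sev14 and 336 ± 78.5 in w1118 libraries (SD, n = 4 each; -1.12 ± 0.25 SE, limma adjusted p = 0.0334). CR44819 (FBgn0266066, 2L 5690529 to 5691770) averaged 201 ± 33.7 in sev14 and 359 ± 42.2 in w1118 libraries (-0.84 ± 0.18, limma adjusted p = 0.0253). Their genotypes did not overlap, although the gap for CR43241 was narrow, between 219 in S1 and 255 in W5.

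**Figure D3:**
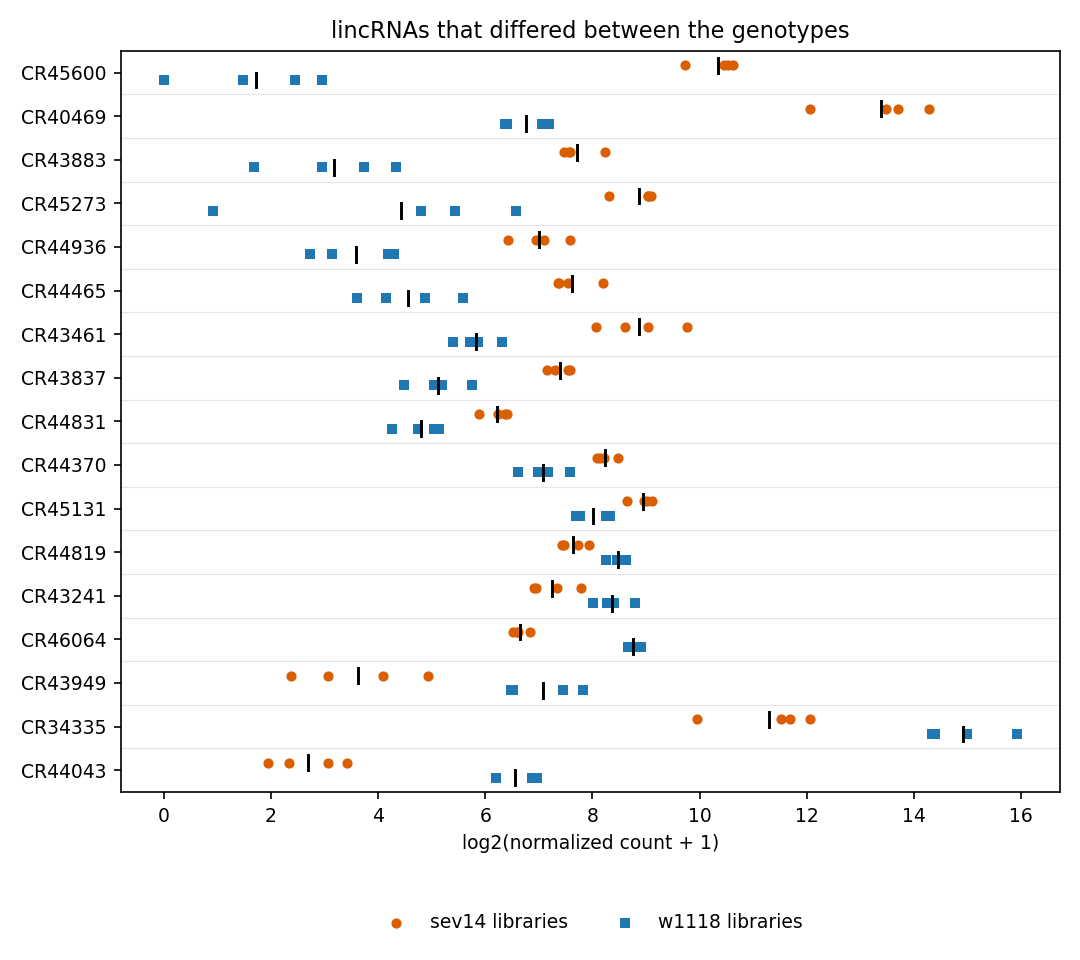
Log2(normalized count + 1) of the 17 called lincRNAs in each sev14 library (circles, upper row of each gene) and each w1118 library (squares, lower row), with vertical bars at the genotype means. The libraries of the genotypes do not overlap for any of the 17, and the gap is widest for CR45600 and CR40469.

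Calls near the threshold depended on the libraries used. CR45600, CR40469, CR43883, CR44936, CR44465, CR43461, CR43837, CR46064, CR43949, CR34335 and CR44043 stayed called under all 21 alternative settings other than the replicate block, which include leaving out each library. The other 6 were lost under some: CR44831 under 12, CR43241 under 9, CR45131, CR44819 and CR45273 under 7 each, and CR44370 under 4. Leaving out S1 alone brought the count of members that rose to 7, without CR44370, CR44831, CR45131 and CR45273. Without both S4 and W6, 15 members were called, of which 11 were shared with the 17. No called member changed direction under any of these settings.

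A further 11 members had no overlap between the genotypes but missed the threshold. Higher in all sev14 libraries were CR43930, CR44030, Uhg1, CR43635, CR42549, CR32111 and CR43480, with differences of 0.42 to 2.76, and lower were CR43428, CR44024, CR42254 and CR45139, with differences of -0.85 to -1.82. CR43930 averaged 116 ± 35.9 normalized counts in sev14 and 22.7 ± 16.5 in w1118 libraries (2.76 ± 0.72 SE, limma adjusted p = 0.0640). It was called when W6, whose value of 2.22 was the lowest, was left out (limma adjusted p = 0.0356). CR42549 differed little among sev14 libraries, at 484 ± 16.9, against 321 ± 65.2 in w1118 libraries (0.61 ± 0.17, limma adjusted p = 0.0848).

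For each called member the genes that overlap it and the nearest gene on each side were compared in the same fit. Of 13 tested pairs of a called member and an overlapping gene, 3 had a called neighbour (23.1%), beside 2 of 69 such pairs for uncalled members (2.90%) and 4.21% of all tested genes. All 3 moved in the direction of their lincRNA. The reads of overlapping genes cannot be told apart, and the part of shared reads in these values was not tested. Of 28 tested pairs with an adjacent gene that does not overlap, 1 had a called neighbour (3.57%), beside 5 of 134 for uncalled members (3.73%), and that neighbour moved the other way.

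CR45600 runs into the upstream end of CG6912 (FBgn0038290, 3R 15135138 to 15137004) on the same strand, with a short stretch of exon in common. CG6912 had 1420, 1384, 962 and 1503 normalized counts in S1, S2, S4 and S5, against 2.66, 0, 25.8 and 4.44 in W1, W2, W5 and W6. Like CR45600 it was high in every sev14 library, with S4 the lowest of them, and near 0 in every w1118 library. The difference of CG6912 was 8.08 ± 0.79 (limma adjusted p = 0.000344). On the opposite strand CR45600 holds CG3984, which averaged 12.5 ± 9.52 in sev14 and 2.12 ± 1.89 in w1118 libraries (2.08, limma adjusted p = 0.268), and it overlaps CG3987, which was under the filter. The nearest gene beyond, GlyS, which encodes glycogen synthase, lies 1722 bp away and averaged 675 ± 93.0 in sev14 and 690 ± 99.3 in w1118 libraries (-0.03, limma adjusted p = 0.956).

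CR46064 overlaps the pseudogene CR43281 (FBgn0262970, 2R 4780311 to 4783646) on the opposite strand, with exons in common. CR43281 had 0, 0, 3.27 and 0 normalized counts in S1, S2, S4 and S5, and 55.8, 37.2, 8.96 and 17.8 in W1, W2, W5 and W6 (-4.13 ± 0.86, limma adjusted p = 0.0248). CR43949 lies inside CR45998 (FBgn0267660, 3L 16017537 to 16021582), a lincRNA of the opposite strand, which had 4.30, 2.09, 2.45 and 0 in S1, S2, S4 and S5, and 46.9, 16.1, 29.1 and 14.4 in W1, W2, W5 and W6 (-3.18 ± 0.74, limma adjusted p = 0.0419). Both neighbours were low in every sev14 library, and both lost their call under several alternatives, CR43281 under 8 of 20 and CR45998 under 12 of 20.

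CR34335 lies on the same strand inside the span of CG32791, outside its annotated exons. CG32791 averaged 157 ± 121 normalized counts in sev14 and 186 ± 110 in w1118 libraries (-0.37, limma adjusted p = 0.839). The adjacent gene ppk8 (FBgn0052792, X 3557812 to 3572000), of the pickpocket family of sodium channel subunits, lies 11702 bp away on the other strand. It had 49.4, 42.9, 34.3 and 43.9 in S1, S2, S4 and S5, and 0, 11.1, 7.84 and 3.33 in W1, W2, W5 and W6 (3.22 ± 0.76, limma adjusted p = 0.0446), and it lost its call under 12 of 21 alternatives.

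The other called members that overlap a gene did so without a called partner. CR43461 lies in CG3168 on the opposite strand, which averaged 923 ± 186 normalized counts in sev14 and 837 ± 270 in w1118 libraries (0.18, limma adjusted p = 0.804). CR44370 lies in Fs, which encodes the activin-binding protein follistatin, on the opposite strand with shared exonic positions, and Fs averaged 2383 ± 554 in sev14 and 2265 ± 393 in w1118 libraries (0.06, limma adjusted p = 0.928). CR44043 lies in l(2)41Ab on the opposite strand, which averaged 62.4 ± 39.8 in sev14 and 80.5 ± 8.13 in w1118 libraries (-0.54, limma adjusted p = 0.569). The means of CG3168 and Fs differed by less than the SD of either genotype while the lincRNA was called. Those of l(2)41Ab differed by less than its SD in sev14 libraries but by more than its SD in w1118 libraries.

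CR43837 lies on the same strand in the span of Inx7, outside its annotated exons. Inx7 encodes a gap junction innexin, and the lincRNA also lies between ogre and Inx2 of the same family. Inx7 averaged 105 ± 31.9 normalized counts in sev14 and 52.9 ± 19.2 in w1118 libraries (0.99, limma adjusted p = 0.167). The differences of ogre and Inx2 were -0.01 and 0.02. CR44831 overlaps the upstream end of pdgy on the same strand, and pdgy, which encodes an acyl-CoA synthetase, averaged 2913 ± 453 in sev14 and 1972 ± 381 in w1118 libraries (0.57, limma adjusted p = 0.103).

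CR43241 shares its first base and its strand with CG42748, and the 2 differed in sign: CG42748 averaged 7290 ± 1154 normalized counts in sev14 and 5721 ± 822 in w1118 libraries (0.35, limma adjusted p = 0.312). CR45131 overlaps CG43340 and CG43341 on the opposite strand, whose differences were 0.36 and 0.35 (limma adjusted p = 0.464 and 0.538). CR44819 holds the lincRNA CR44820 on the opposite strand, which was under the filter. CR40469, CR43883, CR44936, CR44465 and CR45273 overlap no gene of the table. Beside CR45273 lies CG11400, 2577 bp away, which averaged 147 ± 76.2 in sev14 and 32.1 ± 24.8 in w1118 libraries (3.02 ± 1.12, limma adjusted p = 0.191). Beside CR44936 lies unc-45, which encodes a myosin chaperone, with a difference of -0.18 (limma adjusted p = 0.668).

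**Figure D4:**
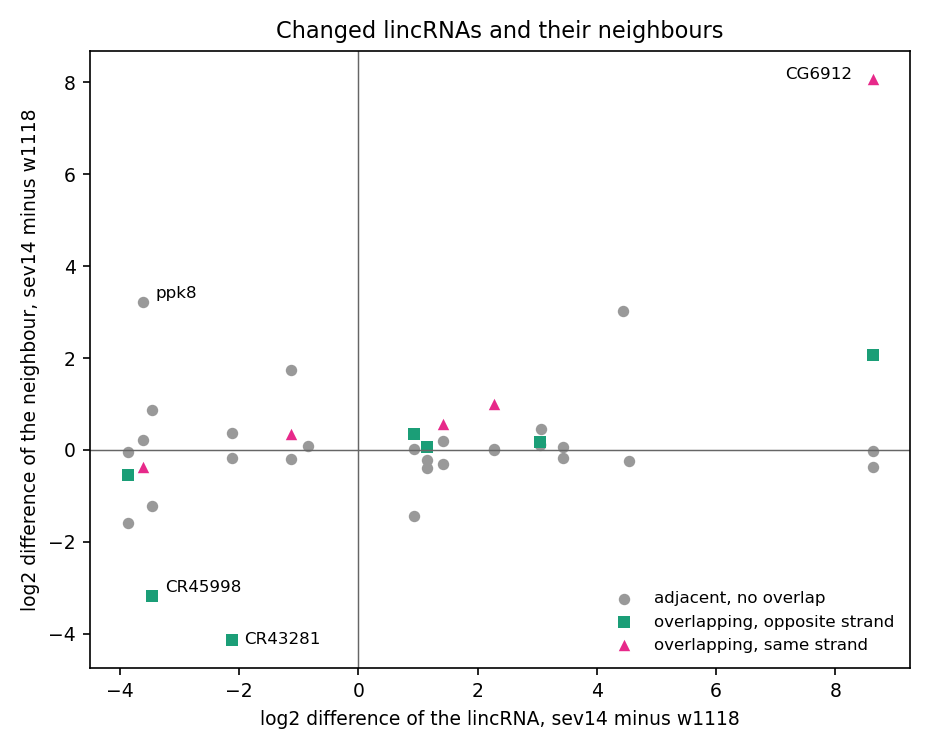
Log2 difference, sev14 minus w1118, of each tested neighbour against that of the called lincRNA it overlaps on the same strand (triangles), overlaps on the opposite strand (squares) or lies next to (circles). CG6912, CR43281 and CR45998, the called overlapping neighbours, share the sign of their lincRNA, and ppk8 does not.

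By chromosome, X held 23 members, of which 4 rose and 1 fell (beside 3.18% of all tested genes on X called in either direction), and 2R held 22, of which 4 rose and 2 fell (beside 5.42%). On 3R 2 of 24 members rose (beside 4.57%), on 3L 1 of 20 rose and 1 fell (beside 3.84%), on 2L 2 of 11 fell (beside 3.80%), and of 4 members on chromosome 4 none was called (beside 1.06%). The member nearest to sev on X, CR45185 at 1023 kb, was not called (0.20), nor was the member nearest to w, CR45197 at 114 kb.

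Precursors of miRNAs formed a distinct class by annotation: 11 members hold an annotated miRNA gene within their span. None of the 11, too few to show a lower share, passed the test, beside 16.3% of all members and 4.21% of all tested genes. Their unprocessed transcripts were measured, not the mature miRNAs, which are too short and unpolyadenylated for such libraries. As background, bantam promotes growth and blocks cell death, and the miRNA of the bereft locus protects the precursors of the interommatidial bristles. In 8 of the 11 S4 was the lowest sev14 library and W6 the lowest w1118 library, beside 39.4% of all members and 16.1% of all tested genes. The median of the 11 stood in S4 at 0.365 times the median of the other sev14 libraries.

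CR43334 (FBgn0263039, 3L 628435 to 643900), the precursor of bantam, had 633, 1372, 34.3 and 950 normalized counts in S1, S2, S4 and S5, and 135, 151, 453 and 84.3 in W1, W2, W5 and W6. All sev14 libraries but S4 were above all w1118 libraries, and S4 was below them all. The difference was 1.30 ± 1.02 (limma adjusted p = 0.608) with S4, and 2.48 without it (limma adjusted p = 0.0273). The replicate block, which leaves out S4 and W6, also called it (2.15, limma adjusted p = 0.0188). It was not called in the same libraries without the block, nor by edgeR, DESeq2 or array weights.

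CR43650 (FBgn0263659, 2R 16829095 to 16839494), which holds mir-8, had 826, 796, 204 and 885 normalized counts in S1, S2, S4 and S5, and 218, 135, 240 and 84.3 in W1, W2, W5 and W6. S4 alone fell within the range of the w1118 libraries. The difference was 1.91 ± 0.49 (limma adjusted p = 0.0621), and 2.41 without S4 (limma adjusted p = 0.00390). It was called by edgeR as well (adjusted p = 0.0436) and in 6 of the alternatives in all, counting the replicate block.

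CR43314 (FBgn0263019, 2L 11952200 to 11971094), which holds the bereft miRNA gene, had 560, 634, 74.4 and 894 normalized counts in S1, S2, S4 and S5, and 215, 265, 444 and 122 in W1, W2, W5 and W6 (0.73 ± 0.70, limma adjusted p = 0.690). CR46006, which holds mir-276a, had 261, 543, 28.6 and 321 in S1, S2, S4 and S5, and 261, 377, 282 and 154 in W1, W2, W5 and W6 (-0.42 ± 0.76, limma adjusted p = 0.858). Its neighbour CR46004, which holds mir-276b, had 49.4, 275, 2.45 and 147 in S1, S2, S4 and S5, and 12.4, 25.1, 43.7 and 12.2 in W1, W2, W5 and W6 (1.28 ± 1.17, limma adjusted p = 0.674). In these 3 loci S4 was again the lowest of all 8 libraries, so that the spread within sev14 was wider than the difference between the genotypes.

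The let-7 complex, let-7-C (FBgn0263049, 2L 18455717 to 18473132), holds mir-100, let-7 and mir-125, which in flies act at the transition to the adult. It had 82.7, 98.4, 38.4 and 65.8 normalized counts in S1, S2, S4 and S5, and 102, 209, 118 and 71.0 in W1, W2, W5 and W6 (-0.77 ± 0.39, limma adjusted p = 0.371). The sev14 values were mostly lower, with overlap between W6 and S1 and S2. CR31044, which holds mir-279 and mir-996, averaged 341 ± 102 in sev14 and 369 ± 79.1 in w1118 libraries (-0.15, limma adjusted p = 0.858). CR43459, with mir-277 and mir-34, averaged 105 ± 72.5 in sev14 and 65.6 ± 10.9 in w1118 libraries (0.41, limma adjusted p = 0.763). CR45918, with mir-987, and CR17025, with mir-252, had limma adjusted p of 0.622 and 0.855.

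**Figure D5:**
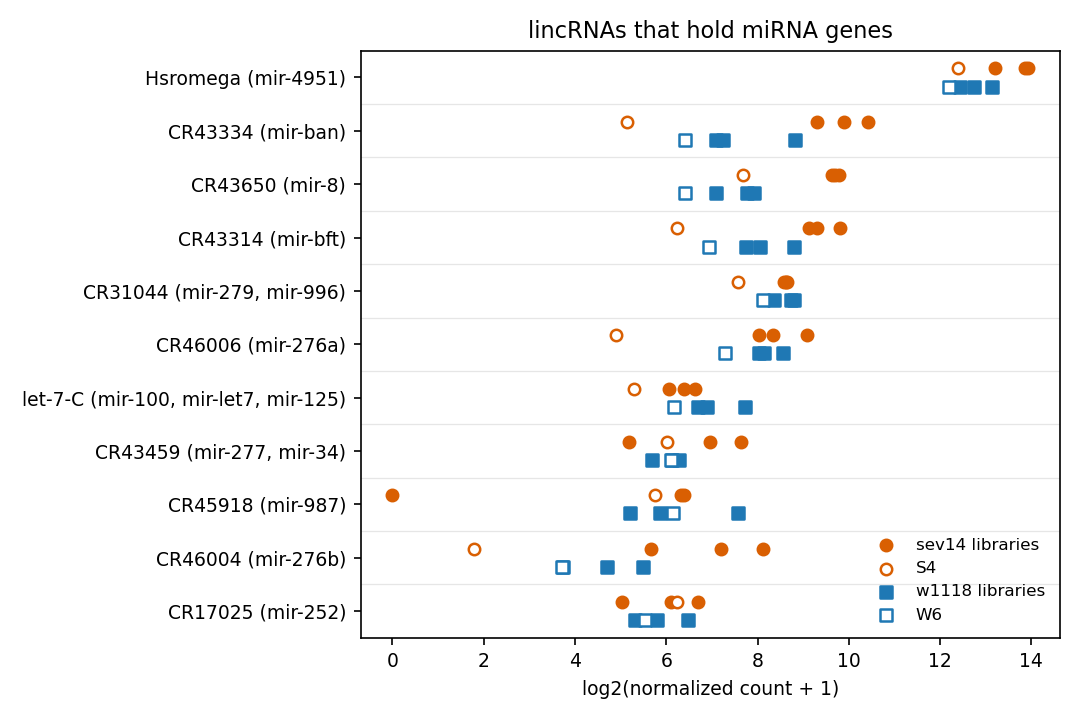
Log2(normalized count + 1) of the 11 lincRNAs that hold miRNA genes, in sev14 libraries (circles, upper row of each gene) and w1118 libraries (squares, lower row), with S4 and W6 drawn as open symbols. S4 and W6 are the lowest of their genotype in 8 of the 11, and S4 lies furthest from its group in CR43334 and CR46004.

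Hsromega (FBgn0001234, 3R 21296127 to 21317836), which in fly nuclei organises the omega speckles that store RNA-binding proteins and which is induced by heat shock, also holds mir-4951. It had 9359, 15560, 5401 and 14786 normalized counts in S1, S2, S4 and S5, and 5506, 6807, 8983 and 4655 in W1, W2, W5 and W6. S1, S2 and S5 were above all w1118 libraries and S4 was within their range (0.72 ± 0.34, limma adjusted p = 0.316). Of 6 genes whose proteins associate with this RNA, Hrb87F, Hrb98DE, sqd, TBPH, caz and nonA, none was called. The alphagamma-element transcript CR32865 (3R 12475336 to 12478267), which lies among the Hsp70B genes, had 582, 602, 352 and 606 in S1, S2, S4 and S5, and 583, 604, 450 and 428 in W1, W2, W5 and W6 (0.03, limma adjusted p = 0.967). Its neighbours Hsp70Ba and Hsp70Bbb, which encode the inducible chaperone, were called higher: Hsp70Bbb averaged 354 ± 194 in sev14 and 87.4 ± 44.9 in w1118 libraries (1.95, limma adjusted p = 0.0371), and Hsp70Ba 81.3 ± 29.0 in sev14 libraries and 0 in each w1118 library. How reads were divided among the Hsp70B genes was not tested. Among uncalled members 5 of 134 tested pairs with an adjacent gene had a called neighbour (3.73%).

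Hosts of snoRNAs, the guides of ribosomal RNA modification that are mostly cut from introns, gave 6 members: CR42491, CR43051, CR45184, Uhg4, Uhg1 and Uhg2. CR43051 is a single block of exon, so its snoRNA gene does not lie in an annotated intron. None of the 6, too few to show a lower share, was called, beside 16.3% of all members and 4.21% of all tested genes. Uhg1 (FBgn0045800, 2R 17699097 to 17703344), with 16 snoRNA genes, had 165, 170, 154 and 186 normalized counts in S1, S2, S4 and S5, and 54.9, 92.4, 123 and 75.5 in W1, W2, W5 and W6. Its genotypes did not overlap, and its p lay just over the threshold (1.01 ± 0.27, limma adjusted p = 0.0651; 0.0438 without W5). The most abundant host, CR42491, which lies in the span of the ribosomal protein gene RpL22, averaged 2335 ± 354 in sev14 and 2261 ± 214 in w1118 libraries (0.04, limma adjusted p = 0.943). Uhg4 averaged 203 ± 44.1 in sev14 and 241 ± 112 in w1118 libraries, and Uhg2 95.8 ± 31.7 in sev14 and 94.9 ± 39.5 in w1118 libraries. None of the 6 was lowest in both S4 and W6, beside 39.4% of all members and 16.1% of all tested genes. S4 was the lowest sev14 library for 3 of them and W6 the lowest w1118 library for 1. With 6 genes no contrast with the miRNA precursors can be drawn.

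Structural RNAs of ribonucleoproteins were also typed as lincRNA. Both copies of the 7SL RNA of the signal recognition particle, 7SLRNA:CR42652 and 7SLRNA:CR32864 (3R 6820133 to 6820431 and 3R 6822498 to 6822796), had the same values, 935, 528, 170 and 548 in S1, S2, S4 and S5, and 583, 881, 632 and 375 in W1, W2, W5 and W6. Reads cannot be assigned between these copies, and they count as 1 measurement (-0.35, limma adjusted p = 0.792). The RNA subunit of RNase P, RNaseP:RNA, averaged 47.7 ± 26.9 in sev14 and 92.6 ± 55.6 in w1118 libraries (-0.95, limma adjusted p = 0.591), with 9.81 in S4 and 22.2 in W6. As background, these RNAs carry no long poly(A) tail, so their level after poly(A) selection is no measure of their amount in the cell.

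Several members with high counts were not called. CR42862, of which CG33229 overlaps 1 end on the same strand, had 59983, 60871, 31478 and 58280 normalized counts in S1, S2, S4 and S5, and 58063, 54294, 36543 and 33184 in W1, W2, W5 and W6 (0.20 ± 0.30, limma adjusted p = 0.818). S4 was the lowest of all 8 libraries, and the other sev14 libraries were above every w1118 library by a small margin. CR44922 varied less, at 2260 ± 237 in sev14 and 2580 ± 124 in w1118 libraries (-0.20 ± 0.11, limma adjusted p = 0.441). CR43264 averaged 753 ± 247 in sev14 and 966 ± 576 in w1118 libraries, and pncr013:4 averaged 712 ± 176 in sev14 and 871 ± 428 in w1118 libraries, with W2 far above the other w1118 libraries in both. CR31451, named mimi in the newer annotation, averaged 823 ± 330 in sev14 and 684 ± 157 in w1118 libraries (0.20), and CR43051 averaged 836 ± 256 in sev14 and 612 ± 110 in w1118 libraries (0.41, limma adjusted p = 0.442).

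Among long noncoding RNAs with a published role in flies, CRG, which lies on the strand and within the span of CASK, a gene it has been reported to regulate, averaged 718 ± 283 in sev14 and 594 ± 154 in w1118 libraries (0.23, limma adjusted p = 0.777), and the difference of CASK was -0.30. The dosage compensation RNA roX1 was below the mean of 50, at 38.9 ± 15.4 in sev14 and 36.7 ± 7.48 in w1118 libraries, and roX2 had 5 reads in sev14 and 0 in w1118 libraries, in these female retinas. None of 7 genes of the dosage compensation machinery was called. The transcripts bxd and flam had no read in any library, and yar, iab-8 and sphinx were under the filter. The transcript cherub (CR43283) had 28 reads in sev14 libraries and 105 in w1118 libraries, nearly all of the 105 in W2. The snoRNA hosts Uhg3, Uhg5, Uhg7 and Uhg8 were also below the mean of 50 and none was called, and CR18854, which the table types as a pseudogene, averaged 36317 ± 9899 in sev14 and 36166 ± 10396 in w1118 libraries. The gene noe, which the table types as protein-coding, averaged 3977 ± 2425 in sev14 and 776 ± 190 in w1118 libraries (limma adjusted p = 0.112), with 647 in S4, below the lowest of the other sev14 libraries at 3891.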

How the data were processed

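Polyadenylated RNA of 4 sev14 and 4 w1118 retina libraries was measured. The submitters' processing notes list the builds dm6 and BDGP6 and the tools HISAT2 2.0.3 and cutadapt 1.9.1, DESeq2 1.32.0 and RSEM 1.2.31, beside FastQC 0.11.4. Coordinates are those of the deposited table. Each deposited library column is a signal: the authors' gene counts, divided by 1 factor per library, called normalized counts here. The value of 1 read was recovered from low values in each library, and at least 99.98% of nonzero values came within 0.05 reads of whole. In W2, where 1 read was worth 1.00, this check says little. The deposited log2 fold change, the deposited score per gene and the authors' p-value columns were used only for comparison. Columns were assigned to genotypes by their initial letters and do not carry the titles' replicate numbers.

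The 10192 genes that averaged 5 or more normalized counts were tested 2-sided with limma 3.58.1 (R 4.3.3), trend option on, on values transformed as log2(normalized count + 1), with Benjamini-Hochberg adjustment over all of them at 0.05. Differences are on this scale, which understates those of low genes. An exact permutation test was used for sev, 2-sided, over 70 arrangements, whose smallest p is 0.0286. The test had been tested on simulated data. Libraries of a genotype differed beyond sampling noise, with chi-square per degree of freedom of 46.0 to 415. Exons, newer names and small RNA genes came from the Ensembl BDGP6 annotation, in which 102 members matched by identifier and 2 by symbol. Values and figures were prepared with Python 3.11.15.

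Named are every called member, the 10 with the highest mean and the 5 lincRNAs on each side of the mean of 50. Also named are their overlapping and adjacent genes as far as results turn on them, and a list of long noncoding RNAs with published roles. Of that list bft, acal, msa and Uhg6 were not found by symbol. None of these was analysed here under its own name, and the bereft miRNA locus is covered by CR43314. The miRNA, snoRNA and structural RNA groups were chosen after values had been seen. The members, lists and tests were chosen with earlier results of these data known. Alternatives were other scalings, pseudocounts and filters, count tests on recovered reads (DESeq2 1.42.0, edgeR 4.0.16), array weights, a replicate block, leaving out libraries, and other minimum means for members. No sequence is shown, since no genome or sequence table was used here.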

Additional observations from a re-analysis of the deposited data

Results flagged for a closer look

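Within a genotype, the highest or lowest of the 4 values was compared with the rest by its gap over the range (Dixon's test at 95%) in 62 groups of values from 31 named genes; chance flags about 1 in 20 groups, and 5 were found. S4 stood apart below the other sev14 libraries for CR42862, at 31478 normalized counts against 58280 to 60871, and for CR45273, at 316 against 525 to 548. S1 stood apart above the other sev14 libraries for CR43883, at 302 against 177 to 189. Of the w1118 libraries W2 stood apart above the others for CR43264, at 1826 against 625 to 767, and for pncr013:4, at 1504 against 562 to 720.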

How the results depend on the processing

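The counts of called members, 11 higher and 6 lower, became 12 and 6 with edgeR and 19 and 9 with DESeq2, which called 503 of all tested genes higher and 344 lower against 243 and 186. Without S2 and S5, 145 of all genes were higher, and without W6 and S4, 156 were higher and 106 lower. Leaving out each library in turn gave 7 to 16 members higher and 4 to 6 lower, and 137 to 251 of all genes higher and 111 to 189 lower. The difference of sev lay between -0.51 and 0.083 over the same settings; without S4 (replicate 4) it reversed to 0.083 (exact permutation p = 0.8). Scaling by total reads shifted the median gene by -0.14, with 177 of all genes higher and 268 lower and 10 and 7 members. A minimum mean of 25 gave 12 and 8 of 156 lincRNAs, and one of 100 gave 9 and 4 of 62. Column numbers 1, 2 and 5 occur in both genotypes. The deviations of same-numbered libraries correlated at 0.0869, 0.190 and 0.0625, beside 0.387 for S4 and W6. No label ties the numbers to a batch, and low correlations cannot exclude one. The main fit was not paired. A replicate block on these 6 libraries called 15 members higher and 4 lower, 12 of them shared with the 17. It called 197 of all genes higher and 131 lower, beside 156 and 106 in the same libraries without the block. Of 460 refits of single named genes, 374 stayed on their side of the threshold, 86 lost it and 0 changed sign. The cause of these shifts was not tested. Depth limits the members under 50 reads in a genotype, such as CR45600 in w1118 and CR44043 in sev14 libraries, whose differences rest on few reads.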
